A study of Mus musculus with 64 samples.

Results

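The comparison concerned brown adipose tissue (BAT) of fat-specific *Nampt* knockout (FANKO) mice late in the light phase, at zeitgeber time (ZT) 10, and late in the dark phase, at ZT 22, where ZT 0 is the time of lights on. Its members were the samples labelled BAT, FANKO and either time point, which gave 4 samples at ZT 10 and 4 at ZT 22, or 8 of the 64 samples of the study. All genes entered, and 20249 of the 52636 genes in the count table passed a filter on low counts and were tested. The question was which transcripts still differ between late light and late dark in brown fat when adipocytes cannot make NAMPT. The study sequenced RNA of BAT and epididymal white adipose tissue (eWAT) from FANKO and WT mice at the 4 times ZT 6, 10, 18 and 22, which made 16 groups of 4 samples. FANKO mice carried *Nampt* alleles (the *Nampt* tm1Jtree line) with loxP sites around exon 3 and Cre under the *Adiponectin* promoter, and WT mice were Cre- littermates of the same floxed line. All mice were males of 2 to 4 months, on chow. The deletion takes place in adipocytes, so blood, vessel, nerve, stromal and immune cells of the tissue keep the gene. The labels number the samples within a group and do not say that each came from a separate mouse. The p-values thus measure the spread between samples, and for single genes that spread was estimated over all 16 groups.

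NAMPT is the rate-limiting enzyme of the salvage pathway that makes NAD+ from nicotinamide. The cellular clock is a loop in which BMAL1 (the product of *Arntl*), paired with CLOCK or NPAS2, activates *Per*, *Cry* and *Rev-erb* (*Nr1d1* and *Nr1d2*) genes through E-boxes. PER and CRY proteins then block their own activators, REV-ERB proteins repress *Arntl*, and the PAR bZIP factors DBP, TEF and HLF carry the rhythm to further genes through D-boxes. Brown fat burns lipid to make heat through UCP1, and it takes up and re-esterifies fatty acids on a daily schedule.

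Total counts of the 8 libraries ran from 7992763 to 27792416, and levels are given as CPM, counts set against the library total after scaling by the trimmed mean of M values (TMM). The libraries held the RNA of brown adipocytes, with *Ucp1* at 961 to 1884 CPM, *Cidea* and *Fabp4* present in all 8, and markers of mesothelium and epididymis at no more than 0.375 CPM in sum. *Ucp1*, *Cidea*, *Cox7a1* and *Cox8b* were lower in all 8 than in every WT BAT library of the same times (*Ucp1* 3369 to 7370 CPM). *Elovl3*, *Dio2* and *Prdm16* overlapped between the genotypes. Summed macrophage markers were 1084 to 2424 CPM, against 140 to 224 CPM in WT BAT. Those of B and plasma cells were 309 to 2643 CPM, against 5.81 to 13.4 CPM. The part of this mix in the differences from WT BAT was not tested. Of 12 measures of library composition, the summed neutrophil markers separated the times, at 9.90 to 14.6 CPM at ZT 10 and 15.2 to 18.4 CPM at ZT 22 (exact permutation test, two-sided, p = 0.0286, which is the least that 4 against 4 samples allow, and 0.343 after adjustment over the 12). Single libraries stood apart. ZT 10 replicate 2 and ZT 22 replicate 3 had summed B and plasma cell markers of 2643 and 2328 CPM, and ZT 22 replicate 2 had summed skeletal muscle markers of 1169 CPM where the other 7 had 48.5 to 95.2 CPM. In bulk tissue, fewer cells of a type and less RNA per cell cannot be told apart.

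*Nampt*, the deleted gene (ENSMUSG00000020572, chr12:32819545-32853349, plus strand, GRCm38), was low in every sample. It measured 158, 150, 145 and 124 CPM at ZT 10 and 132, 147, 116 and 134 CPM at ZT 22. WT BAT had 696 ± 84.2 CPM at ZT 10 and 697 ± 72.0 CPM at ZT 22 (SD, n = 4). The FANKO samples of both times overlapped, with a log2 fold change of 0.12 and a 95% interval of -0.14 to 0.39. Here and throughout, a log2 fold change is the log2 level at ZT 10 minus that at ZT 22, so positive values mean higher in late light. The count of a gene covers all of its exons, so reads from exons outside the deletion are included. None of the 11 measured genes of NAD salvage and synthesis passed the test in edgeR at an FDR of 0.01, none had an unadjusted p below 0.05 (11.3% of all genes tested had one), and neither DESeq2 nor limma-voom called one.

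Between ZT 10 and ZT 22, 125 of the 20249 genes differed in FANKO BAT at an FDR of 0.01 (quasi-likelihood test of edgeR, adjusted p after Benjamini and Hochberg), or 0.617% of those tested. Of these, 81 (0.400%) were higher at ZT 10 and 44 (0.217%) at ZT 22, with median log2 fold changes of 0.79 and -0.83, while the median over all genes tested was -0.01. The samples of the 2 times did not overlap in 77 of the 81 and 43 of the 44, against 8.16% of all genes tested. In 44 of the 125 the samples did not overlap and the change was also at least 2-fold. The share of all genes that met both was not computed, and the 125 were chosen by the same values, so these counts are a description. The same contrast in WT BAT called 1470 genes (7.26%), 627 of them higher at ZT 10. The smallest p among genes higher at ZT 10 belonged to *Dbp*, *Per3*, *Nr1d2* and *Pck1*, and among those higher at ZT 22 to *Dnaja1*, *Hspa8* and *Hsph1*. The count was sensitive to the samples included, and not only to the libraries that stood apart. Without the pair high in B and plasma cell markers 37 and 24 genes were called, and without ZT 22 replicate 2 alone 36 and 29. Leaving out only 1 of that pair gave 62 and 37 (ZT 10 replicate 2) or 45 and 46 (ZT 22 replicate 3). Without ZT 10 replicate 4, which did not stand apart in composition, 38 and 28 were called.

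In samples that took no part in the contrast, most of the called genes kept the same side. Of the 81 genes higher at ZT 10, 67 had a higher mean at ZT 6 than at ZT 18, and of the 44 genes higher at ZT 22, 36 had a lower one. Over all genes tested, 52.2% had a higher mean at ZT 6. Over the 4 times, which include the samples that chose the genes, the 81 had their highest mean at ZT 10 in 79, and the 44 had theirs at ZT 22 in 23 and at ZT 18 in 21, as a description. Not all of the 125 carry equal weight: 34 overlap an annotated gene on the opposite strand, 8 overlap one on the same strand, and since the sources used here do not give the strand setting of the counting or its treatment of multi-mapping reads, reads of such neighbours and of close paralogs may be shared. A pair of the called genes are immunoglobulin segments that rest on single libraries. *Igkv8-30* measured 225 CPM in ZT 10 replicate 2 and 0.328 to 1.73 CPM in the other 7, and *Igkv3-4* measured 48.0 CPM in ZT 22 replicate 3, 6.67 CPM in ZT 22 replicate 2 and under 1 CPM elsewhere.

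Of the 3 clock activators measured, *Arntl* passed the test, lower at ZT 10, and its difference was smaller than in WT BAT. *Arntl* (ENSMUSG00000055116, chr7:113207465-113314126, plus strand), which encodes BMAL1, measured 10.04, 11.04, 11.1 and 7.90 CPM at ZT 10 and 22.8, 27.4, 23.2 and 22.9 CPM at ZT 22. Every ZT 22 sample lay above every ZT 10 sample, and the log2 fold change was -1.28 ± 0.24 (SE, adjusted p = 0.00107 by edgeR). In WT BAT *Arntl* went from 2.01 ± 0.814 CPM at ZT 10 to 46.9 ± 9.16 CPM at ZT 22 (SD, n = 4), a log2 fold change of -4.48, and the difference between the genotypes was 3.20 ± 0.39 (SE, adjusted p = 2.28e-07). The FANKO mean lay above the WT mean in late light and below it in late dark, and those levels were not tested at each time. *Npas2*, the partner of BMAL1 that can stand in for CLOCK, measured 0.667, 1.34, 0.787 and 0.500 CPM at ZT 10 and 2.53, 3.30, 3.67 and 2.09 CPM at ZT 22. Its samples did not overlap either, but it narrowly missed the threshold (log2 fold change -1.90, adjusted p = 0.0101), and the test of the difference from WT BAT did not pass (adjusted p = 0.073). *Clock* itself was level, at 113 to 122 CPM and 120 to 130 CPM, with a log2 fold change of -0.07 and a 95% interval of -0.26 to 0.12. WT BAT had a log2 fold change of -0.71 for *Clock*, and the 2 genotypes differed (adjusted p = 0.00421). In WT BAT all 3 activators passed. Leaving out ZT 10 replicate 4, the lowest of its group, ended the call for *Arntl*.

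Of 10 clock repressors measured, 5 passed the test, all higher at ZT 10, and 3 of the others had values below 0. The list median was 1.32, and in WT BAT 6 passed higher at ZT 10 and 2 higher at ZT 22. *Per3* (ENSMUSG00000028957, chr4:151003652-151044665, minus strand) measured 58.8, 51.3, 53.4 and 65.0 CPM at ZT 10 and 12.6, 12.1, 15.3 and 16.9 CPM at ZT 22. The groups were far apart, with a log2 fold change of 2.01 ± 0.19 (SE, adjusted p = 1.04e-10). *Per2* measured 33.3, 22.1, 22.5 and 27.5 CPM against 7.26, 9.53, 10.6 and 10.2 CPM, a log2 fold change of 1.51 (adjusted p = 0.00202). Without replicate 1 of either group the call for *Per2* was lost. *Per1* had no overlap between the groups and a log2 fold change of 1.38, yet an adjusted p of 0.0374. *Nr1d2*, which encodes REV-ERB beta, measured 117, 128, 122 and 127 CPM at ZT 10 and 33.3, 27.8, 25.9 and 37.9 CPM at ZT 22. All 4 late-light samples were within a narrow band, and the log2 fold change was 1.98 ± 0.24 (SE, adjusted p = 1.58e-07). *Nr1d1* followed at 1.27 (adjusted p = 0.00133). It overlaps *Thra* on the opposite strand, and its call was lost without the pair of libraries high in B and plasma cell markers. *Ciart*, a repressor of CLOCK and BMAL1, had a log2 fold change of 1.95 (adjusted p = 6.4e-06). *Cry1* went the other way, at 16.99, 17.1, 17.5 and 14.7 CPM against 22.3, 29.5, 21.1 and 22.7 CPM. Its log2 fold change of -0.53 did not pass the test (adjusted p = 0.0306), while that of WT BAT was -1.57, and the genotypes differed by 1.04 (adjusted p = 0.00143). *Cry2* had -0.36 (adjusted p = 0.227), also with every ZT 22 sample above every ZT 10 sample, and *Bhlhe41* and *Bhlhe40*, further E-box repressors, had -0.29 and 0.05 (adjusted p = 0.763 and 0.994).

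Among the PAR bZIP outputs, *Dbp* (ENSMUSG00000059824, chr7:45705088-45710203, plus strand) had the smallest p of all genes, at 32.2, 30.2, 28.1 and 33.4 CPM at ZT 10 and 2.58, 4.23, 4.13 and 5.89 CPM at ZT 22. The samples within each time lay close together and the log2 fold change was 2.89 ± 0.25 (SE, adjusted p = 6.9e-12). WT BAT had 4.48, and the difference between the genotypes had an adjusted p of 0.0157. *Tef* rose to 210, 148, 146 and 171 CPM at ZT 10 from 79.6, 66.3, 68.5 and 84.7 CPM at ZT 22, a log2 fold change of 1.17 (adjusted p = 7.37e-05). *Hlf* and *Nfil3*, a repressor that shares the D-box, had values of 0.63 (adjusted p = 0.054) and -0.54 (adjusted p = 0.417). No member of the group of 8 genes for ROR receptors and clock kinases passed by edgeR, although 3 had an unadjusted p below 0.05. DESeq2 called 1 of them and limma-voom none. Over all 25 clock and PAR bZIP genes tested, 8 passed in FANKO BAT and 15 in WT BAT. In 14 of those 15 the absolute log2 fold change was smaller in FANKO BAT, the exception being *Nr1d1*. Those 15 were picked by passing in WT BAT, which by itself favours a larger value there. The difference between the genotypes itself passed the test in 3 (*Arntl*, *Cry1* and *Clock*).

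**Figure D1:**
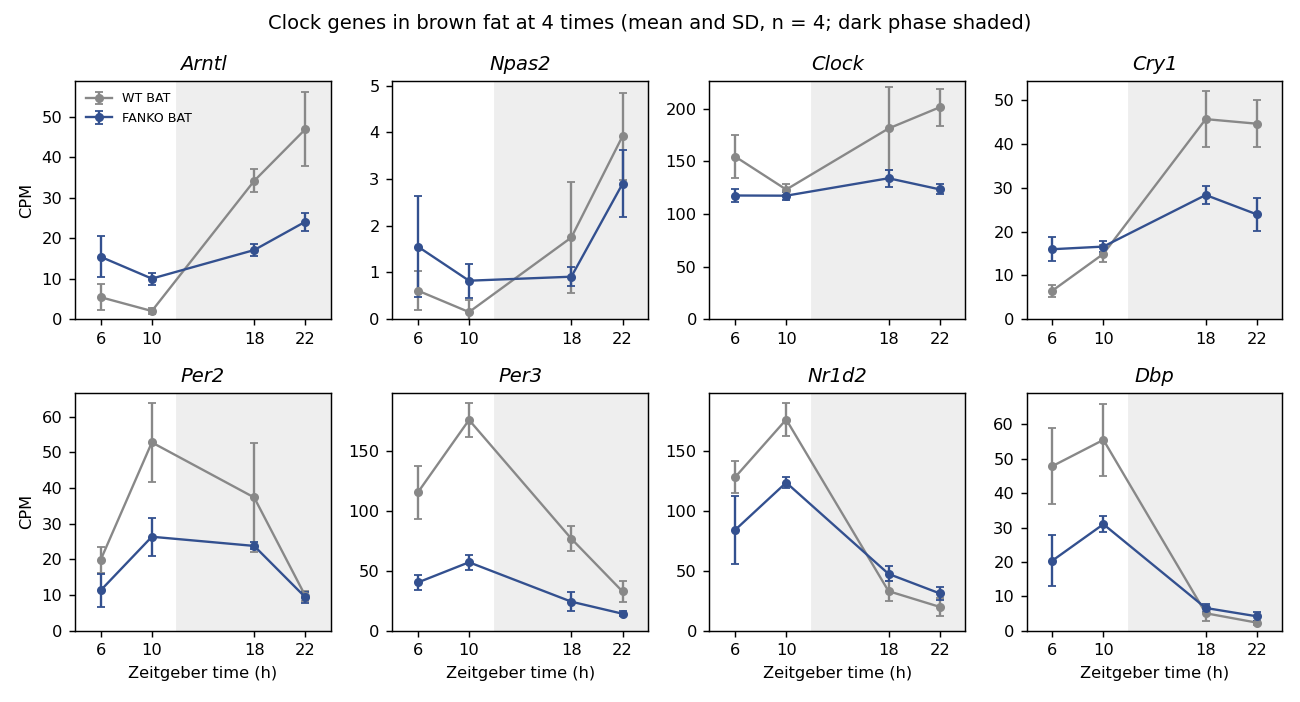
Levels of 8 clock genes in BAT in CPM (linear axis from 0) against zeitgeber time in hours, with points for the mean and bars for the SD of 4 samples, FANKO in blue and WT in grey, and the dark phase shaded. *Arntl* in FANKO BAT moves between means of 10.02 and 24.1 CPM where WT BAT moves between 2.01 and 46.9 CPM, while *Per3* and *Dbp* peak at ZT 10 in both genotypes.

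To show where the factors of this loop could bind, promoters from RefSeq on GRCm38.p6 (250 bases before to 50 after each start site, written in the direction of the gene) were searched on both strands for the E-box CACGTG, the D-box TTATGNAA and the REV-ERB and ROR element TAGGTCA. Of the 12 clock repressors and PAR bZIP genes with a promoter in the table, 5 (41.7%) held an E-box. So did 15 of 66 (22.7%) called genes higher at ZT 10, 2 of 29 (6.90%) higher at ZT 22, and 10.9% of the 12770 tested genes with a promoter. The REV-ERB and ROR element was in 0 of 66 called genes higher at ZT 10, 1 of 29 (3.45%) higher at ZT 22 and 2.38% of tested genes. For the D-box the values were 4 of 66 (6.06%), 1 of 29 (3.45%) and 2.8%. The E-box was in 7.15%, the D-box in 3.38% and the REV-ERB and ROR element in 2.61% of all 32851 promoters. The 3 windows below, with the matching letters in capitals, belong to *Ciart* (chr3:95882179-95882478, minus strand, E-boxes), *Per3* (chr4:151044616-151044915, minus strand, D-boxes) and *Arntl* (chr7:113207261-113207560, plus strand, REV-ERB and ROR element). A match describes letters and not a bound site, and no match in these 3 windows overlaps a match of another of the motifs.
Ciart: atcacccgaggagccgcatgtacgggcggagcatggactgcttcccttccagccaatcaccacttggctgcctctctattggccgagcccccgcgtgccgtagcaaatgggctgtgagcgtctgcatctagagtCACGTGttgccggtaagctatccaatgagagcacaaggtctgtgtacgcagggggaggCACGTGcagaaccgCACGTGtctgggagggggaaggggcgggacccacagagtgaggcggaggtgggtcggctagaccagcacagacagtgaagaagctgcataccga
Per3: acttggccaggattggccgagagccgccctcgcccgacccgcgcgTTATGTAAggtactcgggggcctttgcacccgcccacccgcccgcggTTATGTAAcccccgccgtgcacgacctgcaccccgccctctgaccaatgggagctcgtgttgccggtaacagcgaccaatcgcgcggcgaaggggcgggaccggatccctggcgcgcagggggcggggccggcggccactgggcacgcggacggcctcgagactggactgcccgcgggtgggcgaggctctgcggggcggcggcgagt
Arntl: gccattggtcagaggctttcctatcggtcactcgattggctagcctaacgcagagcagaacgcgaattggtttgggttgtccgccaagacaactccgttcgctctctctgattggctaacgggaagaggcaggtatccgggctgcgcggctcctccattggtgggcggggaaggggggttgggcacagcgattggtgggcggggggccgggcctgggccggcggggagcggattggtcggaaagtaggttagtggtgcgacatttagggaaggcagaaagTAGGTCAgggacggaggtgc
The *Ciart* window holds 3 E-boxes, the *Per3* window holds 2 D-boxes, and the *Arntl* window holds 1 REV-ERB and ROR element, which lies just after the annotated start.

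Among genes of triglyceride synthesis, 3 of 16 passed the test, all higher at ZT 10, with a list median of 0.25. The smallest p was that of *Pck1* (ENSMUSG00000027513, chr2:173153048-173159273, plus strand), the enzyme that supplies glycerol-3-phosphate for re-esterification of fatty acids in fat. *Pck1* measured 819, 495, 768 and 1052 CPM at ZT 10 and 67.4, 29.0, 40.3 and 74.3 CPM at ZT 22. The lowest late-light sample was several times the highest late-dark sample, and the log2 fold change was 3.89 ± 0.50 (SE, adjusted p = 7.69e-07), or 14.8-fold. WT BAT had far more *Pck1* at both times, 6023 ± 452 and 1444 ± 851 CPM (SD, n = 4), and a log2 fold change of 2.06. The difference of 1.83 between the genotypes did not pass the test (adjusted p = 0.148). *Gpat3* and *Gpat4*, acyltransferases that start glycerolipid synthesis, rose by 1.40 (adjusted p = 1.06e-05) and 0.78 (adjusted p = 0.00698). The call for *Gpat4* was lost whichever of the 8 libraries was left out.

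Of 24 genes of fatty acid oxidation, 2 passed the test, both higher at ZT 10. The list median was 0.19 and 23 of 24 were above 0, a count that lists without a called member also had (19 of 20 complex I subunits), while over all genes tested 48.1% were above 0. *Pdk4*, the kinase that turns off pyruvate dehydrogenase and favours fat as fuel, measured 695, 786, 826 and 1251 CPM at ZT 10 and 257, 155, 162 and 207 CPM at ZT 22, a log2 fold change of 2.19 (adjusted p = 0.000122). *Ehhadh*, an enzyme of peroxisomal beta-oxidation, measured 127, 104, 79.1 and 77.4 CPM against 22.7, 22.9, 23.1 and 23.5 CPM, a log2 fold change of 2.07 (adjusted p = 5.99e-06). In both genes the late-dark samples all lay well under the late-light samples. *Ppara* (ENSMUSG00000022383, chr15:85734983-85802819, plus strand), the nuclear receptor that drives such genes, measured 76.3, 81.5, 87.7 and 163 CPM at ZT 10 and 25.3, 15.8, 16.2 and 22.3 CPM at ZT 22. ZT 10 replicate 4 was high, but the other 3 also lay above all late-dark samples, and the log2 fold change was 2.35 ± 0.34 (SE, adjusted p = 1.06e-05). In WT BAT *Ppara* had 253 ± 30.2 CPM at ZT 10 and a widely spread 148 ± 109 CPM at ZT 22 (SD, n = 4), and its log2 fold change of 0.76 did not pass (adjusted p = 0.121). The direct test of the difference between the genotypes did not pass (difference 1.59, adjusted p = 0.0623).

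Of 19 brown adipocyte and thermogenic genes, *Ppargc1a* and *Dio2* passed the test, both higher at ZT 10, and the list median was 0.14. *Ppargc1a*, the coactivator of mitochondrial biogenesis, measured 59.1, 96.1, 151 and 180 CPM at ZT 10 and 37.4, 22.2, 24.4 and 36.7 CPM at ZT 22. The late-light samples varied widely among themselves yet stayed above late dark, with a log2 fold change of 2.01 ± 0.28 (SE, adjusted p = 5.99e-06). In WT BAT the value was 0.44, and the difference of 1.56 between the genotypes had an adjusted p of 0.0201. *Dio2*, the deiodinase that makes active thyroid hormone in brown fat, measured 78.7, 58.1, 124 and 154 CPM against 26.4, 19.2, 17.9 and 30.1 CPM, a log2 fold change of 2.14 (adjusted p = 0.00699). That call was the least secure of the group, since it was lost in 7 of the 8 fits that left out a library and under DESeq2. *Ucp1* measured 1238, 1017, 1487 and 1884 CPM at ZT 10 and 1627, 961, 1371 and 1547 CPM at ZT 22. These groups overlapped throughout, and the log2 fold change of 0.03 had a 95% interval of -0.76 to 0.82. The related coactivator *Ppargc1b* had 0.78 without passing (adjusted p = 0.0854), and *Prdm16*, a determinant of brown fat identity, had 0.17 (adjusted p = 0.857). Of 16 general adipocyte genes, the lipid droplet coat gene *Plin4* alone passed (0.67, adjusted p = 0.00266), although 15 of 16 were above 0 and the median was 0.42. The call for *Plin4* was lost in 4 of the 8 fits that left out a library.

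**Figure D2:**
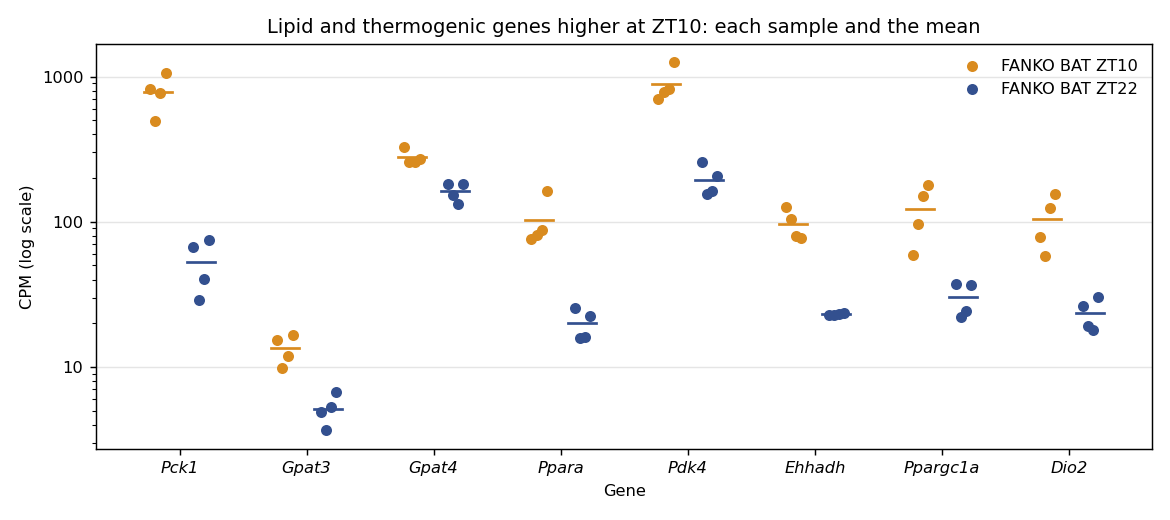
Each FANKO BAT sample as a point and the mean of 4 as a bar, in CPM on a log axis, for 8 lipid and thermogenic genes at ZT 10 (orange) and ZT 22 (blue). No gene shown has a ZT 10 sample below a ZT 22 sample, and *Pck1* has the widest gap.

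Lists of glycogen, lipogenesis, sterol and mitochondrial genes had 1 called member between them. *Ppp1r3g*, a subunit that targets protein phosphatase 1 to glycogen, was 1 of 16 glycogen genes to pass, at 1.37, 1.34, 2.71 and 3.85 CPM at ZT 10 and 0.281, 0.0717, 0.200 and 0.107 CPM at ZT 22. It is a gene of few reads, but its groups were well apart (log2 fold change 3.71, adjusted p = 9.57e-05). Of 18 genes of de novo lipogenesis and 23 of cholesterol synthesis and uptake, none passed in FANKO BAT by edgeR, DESeq2 or limma-voom, and 0 and 2 of them had an unadjusted p below 0.05. In WT BAT 5 and 9 of them passed, all higher at ZT 22, but the difference between the genotypes passed in 1 of each list, *Elovl5* and *Sqle*. Nuclear subunits of complex I, those of complexes III to V, genes of the TCA cycle and cytosolic ribosomal proteins had list medians of 0.08, 0.07, 0.07 and 0.06, with 19 of 20, 19 of 20, 20 of 24 and 24 of 28 above 0, and no member with an unadjusted p below 0.05. Across 48 lists, 35 had no called member in FANKO BAT. Of the 575 tested genes in those 35 lists, 88 (15.3%) had an unadjusted p below 0.05, against 11.3% of all genes tested, DESeq2 called 6 (*Prkar2b*, *Lipe*, *Sik1*, *Rora*, *Myh2* and *Cldn5*) and limma-voom 4 (*Prkar2b*, *Tnf*, *Cxcl9* and *Prf1*).

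Other single genes were higher in late light, several of them chosen after their values were seen. *Coq10b*, which encodes a coenzyme Q-binding protein, measured 52.6, 45.6, 51.2 and 54.6 CPM against 27.9, 24.02, 24.4 and 30.0 CPM, a log2 fold change of 0.94 (adjusted p = 5.99e-06). *Slc5a6*, the transporter of biotin and pantothenate, rose by 1.33 (adjusted p = 1.06e-05), *Pank1*, a kinase of coenzyme A synthesis, by 0.95 (adjusted p = 0.00864), and *Nrg4*, a factor that brown fat secretes, by 0.99 (adjusted p = 7.76e-05). *Cirbp*, an RNA-binding protein induced by cooling, measured 19.0, 24.5, 21.0 and 21.5 CPM at ZT 10 and 12.04, 11.2, 14.9 and 13.3 CPM at ZT 22, a log2 fold change of 0.74 (adjusted p = 0.00195). The groups did not touch, and WT BAT had 0.87. The call for *Cirbp* was lost in 3 of the 8 fits that left out a library and that for *Pank1* in 7. *Impact*, a regulator of the kinase GCN2, measured 67.7, 71.7, 75.3 and 70.7 CPM at ZT 10 and 42.7, 45.7, 42.7 and 42.4 CPM at ZT 22, a log2 fold change of 0.72 ± 0.11 (SE, adjusted p = 1.06e-05). In WT BAT it had 32.4 ± 1.88 and 31.8 ± 4.37 CPM (SD, n = 4) and a log2 fold change of 0.02. *Impact* was the 1 gene called in FANKO BAT, not called in WT BAT, and with a called difference between them (adjusted p = 0.00592).

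Of the 48 lists, heat shock chaperones had the most called genes higher in late dark. Of 28 measured, 7 passed the test, all higher at ZT 22, and 23 were below 0, with a list median of -0.32. WT BAT had 12 called, also all higher at ZT 22, and a median of -0.53. *Hspa8* (ENSMUSG00000015656, chr9:40800984-40810087, plus strand), the constitutive HSP70 of the cytosol, measured 443, 345, 387 and 334 CPM at ZT 10 and 995, 849, 642 and 782 CPM at ZT 22. The groups were separate and the log2 fold change was -1.12 ± 0.16 (SE, adjusted p = 5.99e-06). *Hsph1*, a nucleotide exchange factor for HSP70, measured 34.8, 33.2, 39.3 and 35.0 CPM against 102, 95.8, 88.3 and 87.8 CPM, a log2 fold change of -1.39 (adjusted p = 5.99e-06). *Dnaja1* (ENSMUSG00000028410, chr4:40722150-40737149, plus strand), a J-domain cochaperone, had the smallest p of the genes higher at ZT 22, at 62.6, 57.6, 64.1 and 57.6 CPM against 107, 104, 95.3 and 112 CPM. Samples within each time agreed closely, and its log2 fold change was -0.79 ± 0.10 (SE, adjusted p = 5.73e-07). *Chordc1*, an HSP90 cochaperone, had -0.67 (adjusted p = 1.08e-05), and the cochaperones *Hspa4l*, *Stip1* and *Ahsa1* had -0.63, -0.52 and -0.41 (adjusted p = 0.00105, 0.00133 and 0.00905). The call for *Ahsa1* was lost in 7 of the 8 fits that left out a library, that for *Stip1* in 2 and that for *Hspa4l* in 1.

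The difference between the genotypes passed the test in 4 of the 28 chaperones. For *Hspa4l* and *Stip1* the log2 fold changes in WT BAT were -1.63 and -1.28 (adjusted p of the difference 0.000263 and 0.00123). The others, *Hsp90aa1* and *Hspb1*, were called in WT BAT but not in FANKO BAT. They had -0.41 and -0.66 in FANKO BAT and -1.45 and -2.36 in WT BAT (adjusted p of the difference 0.00137 and 0.00104). For *Hspa8* (-1.71 in WT BAT) and *Hsph1* (-1.89) the difference did not pass (adjusted p = 0.2 and 0.549). The number of called chaperones was 4 when ZT 22 replicate 1 was left out, as it also was with the 8 samples fitted alone or the 32 BAT samples fitted alone. *Serpinh1*, the collagen chaperone of the endoplasmic reticulum and no member of the list, measured 214, 164, 198 and 255 CPM at ZT 10 and 383, 380, 383 and 453 CPM at ZT 22, a log2 fold change of -0.94 (adjusted p = 0.00266, lost in 4 of the 8 fits). The chaperones of the endoplasmic reticulum as a list had 13 of 16 below 0 and a median of -0.18, and its 1 called member, *Dnajb9*, went the other way (0.81, adjusted p = 0.00266).

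**Figure D3:**
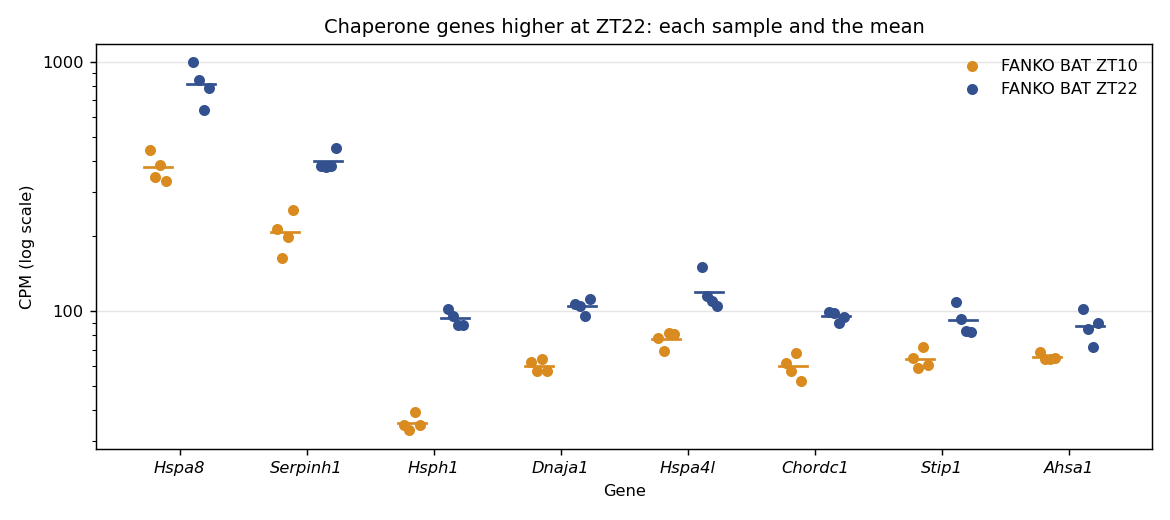
Each FANKO BAT sample as a point and the mean of 4 as a bar, in CPM on a log axis, for 7 heat shock chaperones and the collagen chaperone *Serpinh1* at ZT 10 (orange) and ZT 22 (blue). Every ZT 22 sample lies above every ZT 10 sample of the same gene.

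Heat shock factor binds inverted repeats of the unit GAA, and the pattern GAANNTTC was searched for in the same promoter windows on both strands. It was in 12 of the 22 (54.5%) heat shock chaperone genes with a promoter in the table, in 5 of 29 (17.2%) called genes higher at ZT 22, in 1 of 66 (1.52%) higher at ZT 10, and in 7.24% of tested genes with a promoter (7.86% of all promoters). The list was chosen for its function, and neighbours such as *Hspd1* and *Hspe1* share a promoter region. The windows of *Dnaja1* (chr4:40722218-40722517, plus strand) and *Chordc1* (chr9:18292017-18292316, plus strand), the heat shock chaperones with the smallest p among those that held the pattern apart from *Hsph1*, are given with the matches in capitals.
Dnaja1: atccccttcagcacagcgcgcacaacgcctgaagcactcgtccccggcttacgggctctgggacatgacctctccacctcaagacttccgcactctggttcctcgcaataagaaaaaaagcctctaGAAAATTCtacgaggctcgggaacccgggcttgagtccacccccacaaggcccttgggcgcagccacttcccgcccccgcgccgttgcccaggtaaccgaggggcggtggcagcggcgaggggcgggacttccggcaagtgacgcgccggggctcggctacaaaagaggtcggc
Chordc1: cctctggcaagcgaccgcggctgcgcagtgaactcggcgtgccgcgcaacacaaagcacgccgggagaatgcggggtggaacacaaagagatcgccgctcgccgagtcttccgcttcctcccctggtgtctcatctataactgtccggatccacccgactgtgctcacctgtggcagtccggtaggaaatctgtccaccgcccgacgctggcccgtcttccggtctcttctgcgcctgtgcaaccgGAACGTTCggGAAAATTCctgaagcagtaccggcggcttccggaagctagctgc
The *Dnaja1* window holds 1 match and the *Chordc1* window holds 2 within a few bases of each other, and no binding was measured.

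Other single genes were higher in late dark, some of them also chosen after their values were seen. *Adamts4*, a protease of aggrecan and versican whose counts are uncertain because another gene overlaps it, measured 1.16, 1.00, 1.75 and 1.10 CPM at ZT 10 and 6.18, 3.66, 4.07 and 4.07 CPM at ZT 22, a log2 fold change of -1.86 ± 0.31 (SE, adjusted p = 0.000122). It was the 1 called member of 21 matrix remodelling genes, whose median was 0.05 with 12 above 0. *Plau*, the urokinase plasminogen activator, measured 46.2, 47.4, 47.8 and 33.1 CPM against 76.4, 107, 79.7 and 78.0 CPM, a log2 fold change of -0.97 (adjusted p = 0.000122), where WT BAT had means of 11.9 and 14.9 CPM and a log2 fold change of -0.30. *Yap1*, the effector of Hippo signalling, and *P4ha1*, a prolyl hydroxylase of collagen, both had -0.74 (adjusted p = 0.000267 and 0.00308). *Vgll3*, a cofactor of TEAD factors, had -1.42 (adjusted p = 0.00234) and *Dennd4a*, an exchange factor for RAB GTPases, -0.88 (adjusted p = 3.28e-05). In each of these 6 genes the 4 late-dark samples lay above the 4 late-light samples. The call for *P4ha1* was lost in 3 of the 8 fits that left out a library and that for *Vgll3* in 2.

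No list of immune genes had a called member by edgeR, and every list median but that of macrophage markers lay below 0. Interferon-stimulated genes and T and NK cell markers had medians of -0.45 and -0.54 (27 of 29 and 12 of 14 below 0), macrophage markers had 0.20 (12 of 14 above 0), and antigen presentation genes and B and plasma cell markers had -0.11 and -0.07 (6 of 15 and 4 of 10 above 0). *Clec4e*, a myeloid receptor for damage and mycobacterial glycolipid, measured 3.93, 1.11, 2.97 and 1.55 CPM at ZT 10 and 10.1, 8.75, 5.20 and 8.84 CPM at ZT 22, a log2 fold change of -1.74 (adjusted p = 0.00487). It was near 0 in WT BAT, with means of 0.0194 and 0.0202 CPM, and its call was lost in 6 of the 8 fits that left out a library. *Gm4841*, a gene of the interferon-inducible GTPase family, measured 29.3, 23.9, 35.7 and 19.7 CPM at ZT 10 and 101, 106, 64.2 and 119 CPM at ZT 22. The groups did not overlap (log2 fold change -1.84, adjusted p = 0.000441), and WT BAT had under 1 CPM at both times. Its neighbour *F830016B08Rik* had -1.37 (adjusted p = 0.00335, lost in 5 of the 8 fits), and the related *Iigp1* -1.19 without passing (adjusted p = 0.0441), so reads shared between these similar genes are possible. The median of the 29 interferon-stimulated genes was 0.05 in WT BAT. In FANKO BAT none passed by edgeR, DESeq2 or limma-voom, and 12 had an unadjusted p below 0.05. The chemokine and cytokine genes had 19 of 27 below 0 and a median of -0.27, and the neutrophil markers had a median of -0.33. By limma-voom, 2 chemokine and cytokine genes and 1 T and NK cell marker were called higher at ZT 22. The proliferation genes had 25 of 26 below 0 and a median of -0.37, with none called and 3 at an unadjusted p below 0.05. Beside these stand the summed T and NK cell markers, at 93.1 to 159 CPM at ZT 10 and 139 to 211 CPM at ZT 22 (two-sided exact permutation test, p = 0.0857), and the neutrophil markers given above, of which only 3 of 9 had enough counts to be tested. The part of such cells in these values was not tested.

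**Figure D4:**
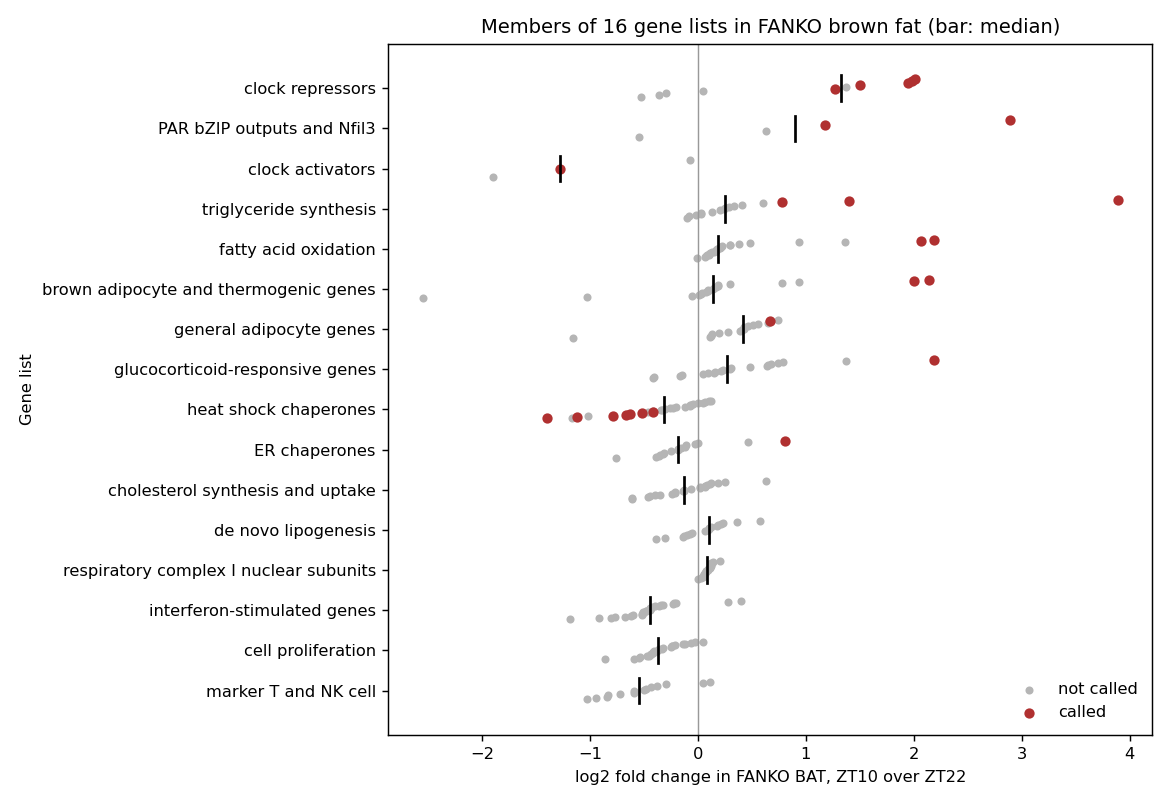
Log2 fold change (ZT 10 over ZT 22) in FANKO BAT of each member of 16 gene lists, with called genes in red, others in grey and the list median as a black bar. Clock repressors and PAR bZIP outputs have medians of 1.32 and 0.90, heat shock chaperones of -0.32, and respiratory complex I subunits lie close to 0.

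Set beside WT BAT, the FANKO genes mostly moved the same way. Of the 81 called genes higher at ZT 10, 80 had the same sign in WT BAT, with a median of 0.76, and 52 were called there. Of the 44 higher at ZT 22, 42 had the same sign, with a median of -1.06, and 30 were called. None was called with the opposite sign. The share of all genes tested with the same sign in both genotypes was not computed. The 82 genes called in both made up 65.6% of the FANKO list and 5.58% of the WT list, and over the 125 genes the log2 fold changes of both genotypes had a Pearson r of 0.757, as a description across genes chosen in FANKO BAT. Among those 125 genes, 6 had a called difference between the genotypes, namely *Arntl*, *Hspa4l*, *Stip1*, the zinc importer *Slc39a10*, *Tmem120a* and *Impact*. The call in FANKO BAT was lost in 5 of the 8 fits that left out a library for *Slc39a10* and in 4 for *Tmem120a*.

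The direct test of the difference between genotypes called 122 genes over the whole table (0.602%). In 119 of them the absolute log2 fold change was smaller in FANKO BAT, and in 3 it was larger (*Impact* and the muscle genes *Ckm* and *Myh4*). Over all genes tested the median absolute log2 fold change was 0.16 in FANKO BAT and 0.25 in WT BAT. The change was called in WT BAT but not in FANKO BAT in 112 of the 122. *Tshr*, the thyrotropin receptor, had the smallest p, at 11.7, 10.1, 9.97 and 12.7 CPM at ZT 10 and 11.3, 19.7, 11.3 and 15.6 CPM at ZT 22 in FANKO BAT. Those groups overlapped (log2 fold change -0.36), whereas WT BAT went from 5.57 ± 0.157 to 46.5 ± 10.7 CPM (SD, n = 4, log2 fold change -3.05), and the difference was 2.68 ± 0.26 (SE, adjusted p = 8.77e-10). *E2f2*, a cell cycle factor, measured 8.85, 9.47, 10.4 and 9.10 CPM against 19.0, 16.3, 17.2 and 15.8 CPM, a log2 fold change of -0.86 (adjusted p = 0.064), against -4.15 in WT BAT (adjusted p of the difference 2.12e-07). Its FANKO samples were separate, with a gap narrower than in WT BAT. Of the 122, 4 were skeletal muscle markers (*Ckm*, *Myh1*, *Myh4* and *Ttn*). Both FANKO BAT ZT 22 replicate 2 and WT BAT ZT 10 replicate 4 (1283 CPM in sum) were rich in such markers. Without these 2 libraries the count was 48, and without FANKO BAT ZT 22 replicate 2 alone it was 87. It was 79 without FANKO BAT ZT 10 replicate 3 and 77 without replicate 4 of that group. Those libraries had summed muscle markers of 55.4 and 75.7 CPM. The part of muscle content in the count was not tested.

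**Figure D5:**
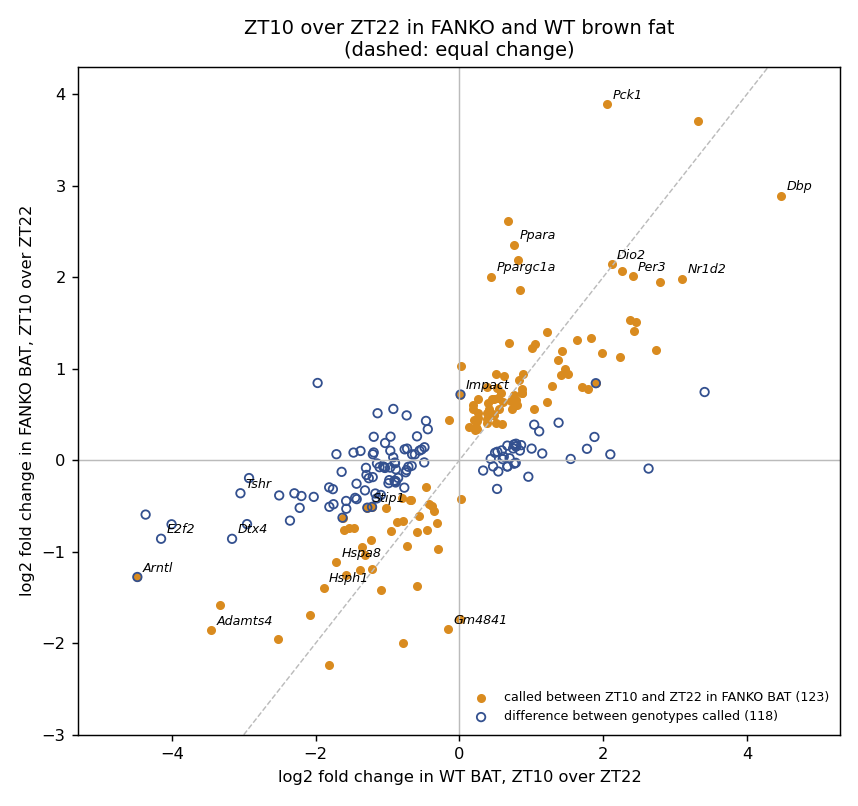
Log2 fold change (ZT 10 over ZT 22) in FANKO BAT against that in WT BAT, with filled points for 123 genes called in FANKO BAT and open circles for 118 genes whose difference between genotypes was called, leaving out 2 immunoglobulin segments and 4 muscle markers. The dashed line marks equal change, and most open circles lie nearer to 0 on the FANKO axis than on the WT axis, such as *Arntl* at -1.28 and -4.48.

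In eWAT of FANKO mice the same contrast called 508 genes (2.51%). Of the 81 genes higher at ZT 10 in FANKO BAT, 65 had the same sign in eWAT, with a median of 0.33, and 21 were called. Of the 44 higher at ZT 22, 40 had the same sign, with a median of -0.44, and 18 were called. The share of all genes tested with the same sign in both depots was not computed. The 42 genes called in the same or the opposite direction made up 33.6% of the BAT list and 8.27% of the eWAT list. The depots differed in 56 genes by the direct test (0.277%). In 46 of them the fitted changes had opposite signs, and in 45 the absolute change was smaller in BAT. Over all genes tested the median absolute log2 fold change was 0.16 in FANKO BAT and 0.19 in FANKO eWAT. *Arntl* had the same sign in both, with -1.28 in BAT and -3.76 in eWAT, where it had 3.52 and 47.5 CPM (adjusted p of the difference 3.4e-05). *Nfil3* had -0.54 in BAT and -2.80 in eWAT (adjusted p = 0.000505). In 3 genes both depots were called with opposite signs. *Pim1*, a serine and threonine kinase, measured 68.1, 76.0, 87.1 and 91.0 CPM at ZT 10 and 52.0, 38.7, 35.1 and 41.1 CPM at ZT 22 in BAT, a log2 fold change of 0.95 (adjusted p = 0.00276), against -1.07 in eWAT (adjusted p of the difference 3.4e-05). *Dnajb9*, a chaperone of the unfolded protein response, had 0.81 in BAT and -0.79 in eWAT (adjusted p of the difference 3.4e-05). *Plekhm2*, which links lysosomes to kinesin, had 0.44 and -0.48 (adjusted p of the difference 0.000101). The BAT calls for *Pim1* and *Dnajb9* were each lost in 5 of the 8 fits that left out a BAT library, and that for *Plekhm2* in all 8. The labels do not say whether the depots came from the same mice.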

How the data were processed

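RNA of BAT and eWAT was sequenced by the authors as 38-bp read pairs from stranded, ribosome-depleted libraries. Per the submitters' processing notes, FastQC 0.11.5, MultiQC 1.2, STAR 2.5.3a and featureCounts 1.5.3 were used with GRCm38.p5, and the paper names GENCODE version 15. Counts per gene were deposited as whole numbers, 1 column per sample, without normalization or pooling. Strand and multi-mapping options of the counting are not given in the sources used here. All 64 columns were matched to the labels by name, and 0 were left unused.

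Genes were kept by filterByExpr on the 16 groups (minimum count 10, minimum total 15). One edgeR 4.0.16 quasi-likelihood model with TMM scaling and 16 group means was fitted in R 4.3.3, and Benjamini-Hochberg adjustment ran over all 20249 genes, with an FDR of 0.01 as the threshold of the study. CPM values in the text carry no prior count. DESeq2 1.42.0 and limma 3.58.1 (voom) served as alternatives, beside other scalings, filters, sample sets, a replicate block and each library left out. The steps were tested on simulated data. Exact permutation tests and figures used Python 3.11.15, numpy 2.4.6, scipy 1.17.1, pandas 2.3.3 and matplotlib 3.10.9. Symbols and coordinates came from GENCODE M21 on GRCm38, with a symbol for 52489 identifiers. List symbols *Pnp*, *Gyk* and *Ctgf* had no match. The immunoglobulin genes and others listed as overlapping were kept in the test.

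Named were the clock, PAR bZIP and *Nampt* genes, the 10 smallest p in each direction, the 5 largest changes in each direction without overlap, up to 4 called members of every other list (or the 2 smallest p where none was called), and the 6 smallest p of each test of a difference, with a mean log2 CPM of at least 1. The members and lists were chosen with earlier results of these data known, and genes outside that rule (such as *Ucp1*, *Impact*, *Serpinh1*, *Slc5a6*, *Pank1*, *Nrg4*, *Yap1*, *P4ha1* and the remaining chaperones) were chosen after their values were seen. Total counts limit precision most in ZT 10 replicate 2, with 7992763.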

Additional observations from a re-analysis of the deposited data

Results flagged for a closer look

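In 134 groups of 4 samples (55 genes and 12 library measures at both times), 9 held a sample far from the other 3 by Dixon's test, which chance gives in about 1 of 20 groups. At ZT 10, replicate 2 stood apart in summed B and plasma cell markers (2643 CPM, others 309 to 580) and in *Cry2* (34.9 CPM, others 46.0 to 47.7). ZT 10 replicate 4 stood apart in *Ppara* (163 CPM, others 76.3 to 87.7), *Plau* (33.1 CPM, others 46.2 to 47.8) and *Arhgap20* (5.45 CPM, others 3.15 to 3.48). At ZT 22, replicate 2 stood apart in summed skeletal muscle markers (1169 CPM, others 52.4 to 95.2), *Plau* (107 CPM, others 76.4 to 79.7) and *Arntl* (27.4 CPM, others 22.8 to 23.2). ZT 22 replicate 1 stood apart in *Adamts4* (6.18 CPM, others 3.66 to 4.07).

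The difference between late light and late dark differed between FANKO and WT BAT by the direct test in *Tshr* (2.68 on the log2 scale, FANKO minus WT), *E2f2* (3.29), *Dhrs3* (1.51), *Arntl* (3.20), *Dapk1* (1.44), *Dtx4* (2.30), *Cry1* (1.04) and *Clock* (0.64). In each of these genes the fitted change was nearer to 0 in FANKO BAT, with *Dhrs3*, a retinal reductase, at -0.13 against -1.64 and *Dapk1*, a death-associated kinase, at -0.32 against -1.76. *Dtx4*, a regulator of Notch, had -0.86 against -3.16.

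It differed between FANKO BAT and FANKO eWAT in *Pim1* (2.02, BAT minus eWAT), *Arntl* (2.48), *Dnajb9* (1.60), *Ppp1r15a* (1.53), *Plekhm2* (0.92), *Tmem129* (0.91), *Nfil3* (2.26) and *Cry1* (0.93). *Ppp1r15a*, which recruits a phosphatase to eIF2 alpha, had 0.56 in BAT (adjusted p by edgeR 0.0582) and -0.98 in eWAT.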

How the results depend on the processing

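The 81 genes higher at ZT 10, 44 higher at ZT 22, 122 that differed between genotypes and 56 that differed between depots depended on the setting. With library size alone 38, 54 and 24 genes were called higher at ZT 10, between genotypes and between depots. DESeq2 called 129, 83, 201 and 136, and an FDR of 0.05 gave 183, 143, 322 and 195. Fitting only the groups compared left 53 higher at ZT 10, and fitting only the 32 BAT samples left 36, 27 and 34 (the depot comparison has no such fit). In settings added after the data were seen, leaving out both libraries high in B and plasma cell markers gave 37, 24, 68 and 28, and leaving out both libraries high in skeletal muscle markers gave 36 higher at ZT 10, 48 between genotypes and 36 between depots. The other settings moved none of the 4 counts by over 1.5 times.

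Leaving out each FANKO BAT library in turn gave 36 to 62 genes higher at ZT 10, 26 to 46 higher at ZT 22, 77 to 126 between genotypes and 27 to 47 between depots. For genes higher at ZT 10 the libraries that moved the count most were ZT 22 replicate 2 (36), ZT 10 replicate 4 (38), ZT 10 replicate 1 (45), ZT 22 replicate 3 (45) and ZT 22 replicate 1 (48). For genes higher at ZT 22 they were ZT 10 replicates 1, 3 and 4 (26, 28 and 28) and ZT 22 replicates 1 and 2 (28 and 29). For the depot difference they were ZT 22 replicate 3 (27) and ZT 10 replicates 2, 3 and 4 (37, 33 and 35). The cause was not tested, apart from the fewer samples of each fit.

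A replicate block within each depot and genotype gave 93, 59, 134 and 63. Same-numbered samples deviated together with correlations of 0.17, -0.01, 0.04 and 0.08, so the numbers were not taken as pairs. With the 8 samples of the comparison fitted alone, the 84 called genes shared 57 with the 125. Of 59 called genes named in the text or by the rule, 29 kept their call in all 11 alternatives run on single genes, 32 in all 8 fits without a library and 27 in both, and of 106 that were not called 17 gained a call in some setting. The 1 that reversed was *Igkv8-30*, whose log2 fold change of 6.30 became -0.59 without ZT 10 replicate 2 (range over fits without a library -0.59 to 7.14). Over all these fits the log2 fold change ranged from -1.34 to -1.17 for *Arntl*, 1.37 to 1.64 for *Per2*, 1.89 to 2.34 for *Dio2*, 0.69 to 0.85 for *Gpat4*, 0.55 to 0.75 for *Plin4*, 0.67 to 0.81 for *Cirbp*, 0.87 to 1.12 for *Pank1*, 0.87 to 1.07 for *Pim1*, 0.74 to 0.86 for *Dnajb9*, 0.38 to 0.47 for *Plekhm2*, -0.49 to -0.33 for *Ahsa1*, -1.06 to -0.85 for *Serpinh1*, -1.51 to -1.26 for *Vgll3*, -1.44 to -1.27 for *F830016B08Rik* and -2.12 to -1.54 for *Clec4e*. Counts of called heat shock chaperones ran from 4 to 8 and those of clock repressors from 4 to 6, where 7 and 5 were called. Relative counts do not show a change that all transcripts share, and the shallowest library limits genes under 1 CPM.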

Other observations

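Several other called genes of FANKO BAT were chosen after their values were seen, and no list or test stands behind their grouping here. *Slc39a6* and *Slc39a10*, zinc importers of the ZIP family, were both higher at ZT 22. *Slc39a6* measured 16.8 to 20.4 CPM at ZT 10 and 26.3 to 35.1 CPM at ZT 22 (log2 fold change -0.77, adjusted p by edgeR 0.00127), and *Slc39a10* measured 24.7 to 27.6 and 31.4 to 41.2 CPM (-0.51, adjusted p by edgeR 0.00403). The call for *Slc39a10* was lost in 5 of the 8 fits that left out a library and in 4 of 11 other alternatives, and that for *Slc39a6* in 1 of the 8. The phosphodiesterase genes *Pde1a* and *Pde7b* and the adenylyl cyclase gene *Adcy6*, whose products break down and make cyclic nucleotides, were higher at ZT 10, with log2 fold changes of 0.78, 0.80 and 0.51 (adjusted p by edgeR 0.000388, 0.00412 and 0.00133). The call for *Pde7b* was lost in 5 of the 8 fits and that for *Adcy6* in 2. The list of 16 cAMP-linked genes had no called member by edgeR, 6 with an unadjusted p below 0.05 and 2 called by DESeq2 and 1 by limma-voom, and its member *Pde4b* had -0.45. *Sgms2*, a sphingomyelin synthase, measured 38.9 to 48.5 CPM at ZT 10 and 15.2 to 24.4 CPM at ZT 22 (1.03, adjusted p by edgeR 0.000575), where WT BAT had a log2 fold change of 0.02, and the difference between the genotypes did not pass (adjusted p by edgeR 0.213). *Pex5*, the import receptor of peroxisomes, had 0.63 and *Por*, the electron donor of cytochrome P450 enzymes, 0.56, both higher at ZT 10 (adjusted p by edgeR 0.000129 and 0.000873), and the call for *Por* was lost in 1 of the 8 fits. In each of these genes the samples of the 2 times did not overlap.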
